A study of Rattus norvegicus with 23 samples.

Results

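The IGF system of the rat kidney was examined here in cells kept at normal or acidic pH, as the levels of 10 genes: the ligands Igf1 and Igf2, the receptors Igf1r and Igf2r, and the binding proteins Igfbp2, Igfbp3, Igfbp4, Igfbp5, Igfbp6 and Igfbp7. The genes were chosen by symbol, and all 10 were found among the 30452 genes of the count table. Comparisons of gene expression were made in NRK-52E cells, labelled as epithelial (NRKE), and in NRK-49F cells, labelled as fibroblasts (NRKF), both established lines from normal rat kidney. All cells were kept for 24 h in medium without FCS and then for 48 h at pH 7.4 (control) or at pH 6.0, which was set with HCl. Poly(A) RNA was sequenced from 6 samples of NRK-52E cells at each pH, 6 of NRK-49F cells at pH 7.4 and 5 of NRK-49F cells at pH 6.0. Each line is a continuous culture without the other cells of the kidney, and nothing in the labels says that samples came from separate cultures, so p-values measure the spread between these samples, which may be technical. The labels also assign a sample group, 1 or 3 within NRK-52E and 4 or 6 within NRK-49F, without saying what it stands for.

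IGF1 and IGF2 are growth factors that act through the receptor tyrosine kinase IGF1R, which signals to PI3K and AKT through adaptors such as IRS1. IGF2R has no kinase: it is the cation-independent mannose 6-phosphate receptor, which carries newly made lysosomal hydrolases to endosomes and removes IGF2 from the cell surface for degradation. The binding proteins hold IGFs in the extracellular space with high affinity, except IGFBP7, whose affinity is low, and proteases release the ligand by cutting them. In the kidney the system is known for its role in growth of the tubule and in repair and fibrosis.

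Because Igf1r and Igfbp6 were lower at pH 6.0 in both lines, Igf2r was lower in NRK-52E cells, and the neighbouring genes Igfbp2 and Igfbp5 were each high in a different line, the 250 bases in front of these 5 genes are shown. They are RefSeq sequences of the build GRCr8, written 5′ to 3′ on the strand of the gene, and capitals mark matches on either strand to the motifs searched. Those were the E-box CACGTG, the extended E-box known from lysosomal genes (CACGTG with GT before it and AC after it, so that each match is also an E-box), the GC box GGGCGG, the TATA box TATAAA, the AP-1 site TGANTCA and the ATF4-type site TGATGNAA. The windows lie at chr1:130959747-130959996 (plus strand), chr1:50526628-50526877 (plus strand), chr7:135154669-135154918 (plus strand), chr9:81864561-81864810 (plus strand) and chr9:81914188-81914437 (minus strand).
Igf1r promoter: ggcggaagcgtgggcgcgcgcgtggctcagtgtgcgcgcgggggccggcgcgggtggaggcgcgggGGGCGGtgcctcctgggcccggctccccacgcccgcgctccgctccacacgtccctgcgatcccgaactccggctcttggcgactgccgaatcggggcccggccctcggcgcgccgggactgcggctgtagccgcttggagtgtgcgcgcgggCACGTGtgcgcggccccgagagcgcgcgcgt
Igf2r promoter: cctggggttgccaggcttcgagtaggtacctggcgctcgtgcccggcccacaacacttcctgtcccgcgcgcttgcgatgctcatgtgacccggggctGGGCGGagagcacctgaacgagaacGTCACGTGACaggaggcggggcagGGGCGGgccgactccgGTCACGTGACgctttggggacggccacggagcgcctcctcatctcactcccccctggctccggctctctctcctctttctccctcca
Igfbp6 promoter: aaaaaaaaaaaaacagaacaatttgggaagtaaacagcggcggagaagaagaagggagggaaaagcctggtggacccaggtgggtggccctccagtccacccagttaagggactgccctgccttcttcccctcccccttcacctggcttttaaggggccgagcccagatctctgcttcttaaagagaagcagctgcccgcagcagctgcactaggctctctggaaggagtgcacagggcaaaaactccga
Igfbp2 promoter: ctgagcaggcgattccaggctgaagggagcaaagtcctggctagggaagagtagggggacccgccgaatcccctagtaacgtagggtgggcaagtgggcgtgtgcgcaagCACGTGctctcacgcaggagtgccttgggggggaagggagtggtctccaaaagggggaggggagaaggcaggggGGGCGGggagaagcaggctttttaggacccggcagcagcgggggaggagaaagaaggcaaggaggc
Igfbp5 promoter: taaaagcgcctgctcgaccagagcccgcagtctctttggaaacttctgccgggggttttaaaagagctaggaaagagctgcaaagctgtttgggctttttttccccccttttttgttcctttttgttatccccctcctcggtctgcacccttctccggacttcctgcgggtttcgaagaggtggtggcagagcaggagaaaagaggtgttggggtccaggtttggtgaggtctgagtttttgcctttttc

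The Igf2r window held 2 copies of the extended E-box, which began 127 and 87 bases before the start of the gene. Of all 33465 rat promoter windows of this length, 0.203% held this motif and 3 windows held 2 or more copies. Igf2r also had 2 GC boxes, which 30.5% of all windows have at least singly. Igf1r and Igfbp2 each had 1 E-box (5.59% of all windows) and 1 GC box. In the windows of Igfbp5 and Igfbp6 none of the 6 motifs was found, among them the TATA box, which 12.9% of all windows hold, the AP-1 site (6.34%) and the ATF4-type site (3.4%). The window of Igfbp7, not printed, held 4 GC boxes. The share of G and C ranged from 51.6% in Igfbp5 to 79.6% in Igf1r. These matches describe the letters only, since binding to these promoters was not measured.

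Levels are given in FPM, counts scaled to a common library size of 1000000, and as raw counts where a gene was near the limit of detection, which was set at 3 counts. FPM are not divided by gene length, so they compare samples for 1 gene and not genes with each other. Total counts ranged from 16412564 to 34250535 per sample, and 3 counts corresponded to 0.0839 to 0.203 FPM. Of the 10 members, 8 passed the filter on low counts. Igf2, with 63 counts over all 23 samples, and Igfbp3, with 36 counts, did not pass and were tested on their own. A member was called changed where edgeR's quasi-likelihood test, fitted across 14777 genes, gave a Benjamini-Hochberg adjusted p under 0.05.

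The labels of both lines were compared with markers of epithelial cells and fibroblasts. NRK-49F cells carried the fibroblast genes Pdgfra, Col1a1, Col1a2, Lum and Prrx1, while Thy1 was at 0 there at pH 7.4. The 15 fibroblast markers summed to 11115 to 14139 FPM in NRK-49F samples at pH 7.4 and 7714 to 10316 FPM at pH 6.0. In NRK-52E samples the same sum was 5030 to 8200 FPM at pH 7.4 and 1883 to 3176 FPM at pH 6.0. At each pH the NRK-52E range lay below that of NRK-49F samples, without overlap. In NRK-52E cells the epithelial markers Epcam, Esrp1, Grhl2, Pax8 and Krt18 were at or near 0, as was Cdh1 at 0.160 FPM at pH 7.4. Their summed epithelial level, over 14 markers in the table, was 486 to 700 FPM at pH 7.4 and 221 to 282 FPM at pH 6.0, where NRK-49F samples had 675 to 1213 and 445 to 702 FPM. Most of it was Krt8, which was higher in NRK-49F cells (839 against 499 FPM at pH 7.4). Col3a1 was higher in NRK-52E cells (6149 against 1212 FPM). Krt7 and Tjp3 stood higher in NRK-52E cells at pH 7.4, at 21.8 and 15 FPM against 1.42 and 1.76 FPM. The lines are therefore called by their names. In such bulk samples, fewer cells of a type and less RNA per cell cannot be told apart.

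Genes that were high in 1 line had low counts in the other, whose source (RNA of the other line or the line's own expression) cannot be told apart here. For 57 genes that were at least 100-fold higher in NRK-52E cells at pH 7.4 than in the median NRK-49F sample, the NRK-49F samples held a median of 0.0895% to 3.91% of the NRK-52E level, with the highest share in sample A051 at pH 7.4. For 91 genes chosen the other way round, NRK-52E samples held 0.0414% to 1.53% at pH 7.4, highest in sample A021, and 0.0193% to 0.0893% at pH 6.0. These genes were chosen after the data had been seen, and by a low share in the median receiving sample, so that only the spread of the share over samples is informative. An alternative in which each sample's median share of the other line was subtracted from all genes was added at the same time. The shares are given where a member was far lower in 1 line than in the other.

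At pH 6.0 the receptors Igf1r and Igf2r and the binding protein Igfbp6 were lower in the NRK-52E line, and no tested member was called higher. These 3 of 8 tested members stand beside 61.2% of all tested genes called in this line, 24.7% higher and 36.6% lower. In NRK-49F cells, Igf1r, Igfbp2, Igfbp6 and Igfbp7 were lower and Igfbp5 was higher, so that 5 of 8 members passed, against 28.9% of all genes (14.5% higher and 14.4% lower). The median log2 fold change of the 8 members was -1.09 for NRK-52E and -0.43 for NRK-49F, beside -0.12 and 0.00088 over all genes. The NRK-52E median includes Igf1 (-1.85) and Igfbp5 (-1.56), which had at most 2 and 9 counts in that line. Both passed the filter through their NRK-49F samples, so this median rests in part on values near the limit of detection. The samples of both pH values did not overlap for 2 of the 8 members in each line, where 38.6% of all genes did not in the former line and 20.6% in the latter. Taken by sample group, 3 members were called in group 1 (48.9% of all genes), 3 in group 3 (57.4%), 2 in group 4 (23%) and 4 in group 6 (21.2%).

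**Figure D1:**
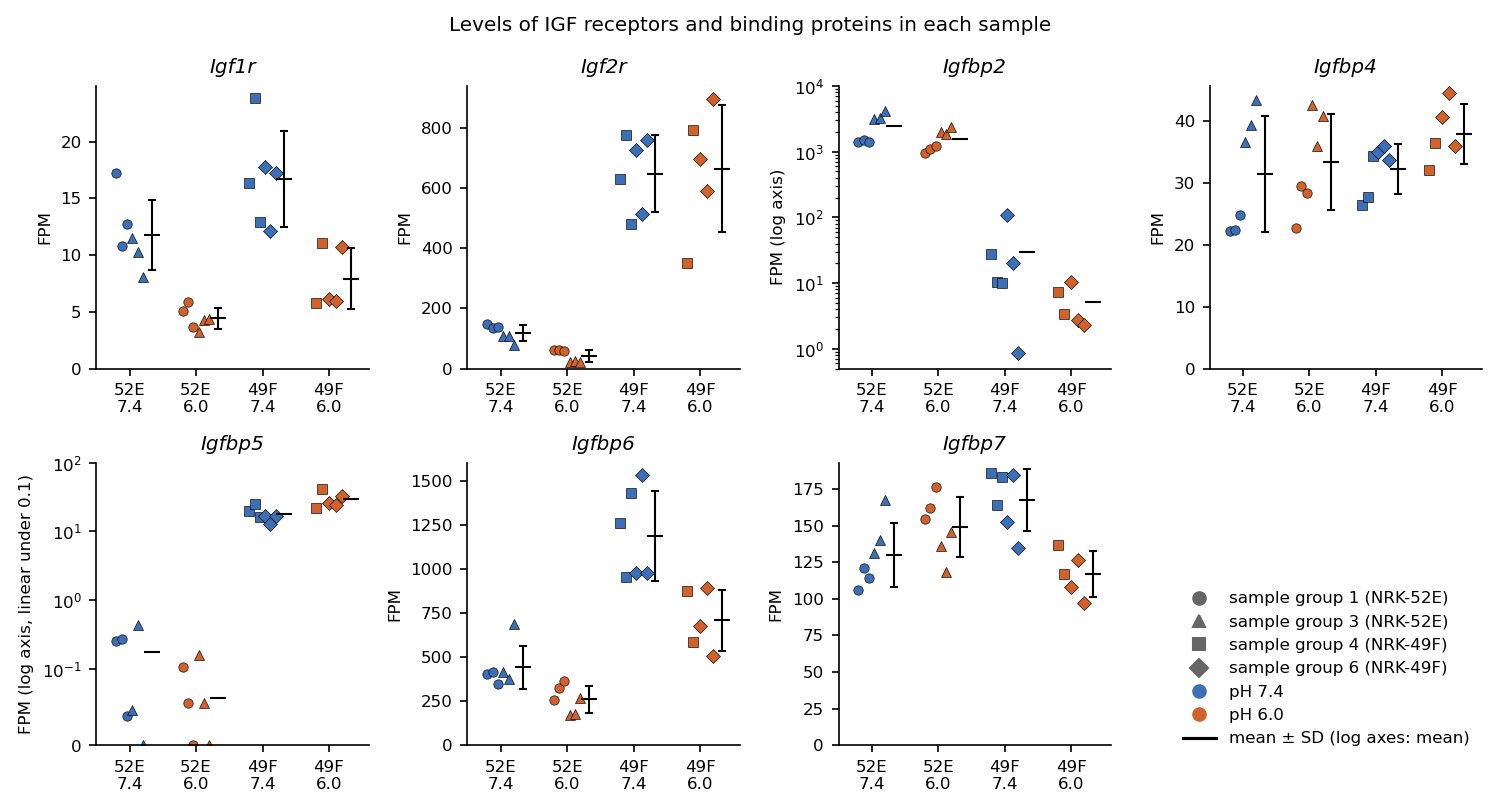
Levels in FPM (y axis, linear from 0 except for the log axes of Igfbp2 and Igfbp5, the latter with a linear stretch next to 0) of 7 members in every sample, with NRK-52E (52E) and NRK-49F (49F) cells at pH 7.4 (blue) and pH 6.0 (orange) along the x axis, the sample group given by the marker's shape, and black bars for the mean ± SD (the mean alone on the log axes). Igf1r was lower at pH 6.0 in both lines, Igf2r fell in NRK-52E cells, where sample group 3 lay lowest at pH 6.0, and Igfbp2 and Igfbp5 were high in different lines.

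Igf1r, the receptor that signals for both ligands, was lower at pH 6.0 in both lines. In NRK-52E cells it ranged from 8.04 to 17.2 FPM with a median of 11.1 at pH 7.4, and from 3.25 to 5.84 FPM with a median of 4.32 at pH 6.0. The groups did not overlap, and the log2 fold change was -1.42 (SE 0.21, adjusted p = 3.84e-06), a 2.68-fold lower level. In NRK-49F cells it ranged from 12.2 to 23.9 FPM with a median of 16.8 at pH 7.4. At pH 6.0 the 5 samples were at 5.76, 11.0, 6.16, 5.99 and 10.7 FPM, again without overlap, with a log2 fold change of -1.08 (SE 0.22, adjusted p = 0.000576). A difference between the lines in this fall was not called (difference -0.34 on the log2 scale, 95% interval from -0.93 to 0.25, adjusted p = 0.397). Between lines, NRK-52E cells held less Igf1r than NRK-49F cells, with a log2 difference of -0.50 at pH 7.4 (adjusted p = 0.0313) and -0.84 at pH 6.0 (adjusted p = 0.00161). At pH 7.4 this call was lost when any 1 of 6 samples was left out (A022, A033, A034, A035, A040 or A051), with a highest adjusted p of 0.106.

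Igf2r responded differently in the lines. In NRK-52E cells, its level ranged from 76.9 to 148 FPM with a median of 122 at pH 7.4 and from 20.4 to 62.7 FPM with a median of 41.5 at pH 6.0, so that every acidic sample was below every control sample. The log2 fold change was -1.52 (SE 0.28, adjusted p = 4.74e-05), a 2.87-fold lower level. In NRK-49F cells the level was 481 to 776 FPM with a median of 679 at pH 7.4, and 349, 794, 695, 588 and 895 FPM at pH 6.0. These groups overlapped widely, and the log2 fold change of 0.04 was not called (SE 0.28, adjusted p = 0.945). The difference between both changes was -1.56 (SE 0.39, adjusted p = 0.00258). For the lines themselves, Igf2r was 5.44-fold lower in NRK-52E than in NRK-49F cells at pH 7.4 (adjusted p = 4.17e-08) and 16-fold lower at pH 6.0 (adjusted p = 2.36e-11).

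The 12 NRK-52E samples of Igf2r separated further by sample group at pH 6.0. At pH 6.0 the samples of group 1 were at 62.7, 60.4 and 59.2 FPM and those of group 3 at 20.4, 23.9 and 21.6 FPM, a log2 difference of -1.47 (adjusted p = 0.000153), where 27.8% of all genes differed between these groups. At pH 7.4, group 1 held 148, 134 and 137 FPM and group 3 held 109, 108 and 76.9 FPM, a difference that was not called (-0.51, adjusted p = 0.266). Igf2r fell within each group, with log2 fold changes of -1.20 in group 1 (adjusted p = 0.000331) and -2.16 in group 3 (adjusted p = 3.66e-07). The difference between both falls, -0.95, missed the threshold (adjusted p = 0.0788).

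Igfbp6, a binding protein with preference for IGF2, was lower at pH 6.0 in both lines by a similar size. In NRK-52E cells it ranged from 345 to 688 FPM with a median of 409 at pH 7.4 and from 170 to 362 FPM with a median of 262 at pH 6.0, with some overlap. The log2 fold change was -0.76 (SE 0.20, adjusted p = 0.00191). In NRK-49F cells it ranged from 958 to 1539 FPM with a median of 1122 at pH 7.4 and stood at 878, 585, 680, 894 and 508 FPM at pH 6.0, without overlap. The log2 fold change was -0.75 (SE 0.21, adjusted p = 0.00894). The difference between the lines was -0.01, with a 95% interval from -0.57 to 0.55 and an adjusted p of 0.982. Within NRK-52E cells, sample group 3 gave -1.27 (adjusted p = 0.000348) and group 1 gave -0.30, which was not called (adjusted p = 0.354), while the difference between the groups was itself not called (adjusted p = 0.102). NRK-52E cells held less Igfbp6 than NRK-49F cells at both pH values, 2.70-fold less at pH 7.4 (adjusted p = 8.9e-07) and 2.73-fold less at pH 6.0 (adjusted p = 1.03e-06).

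**Figure D2:**
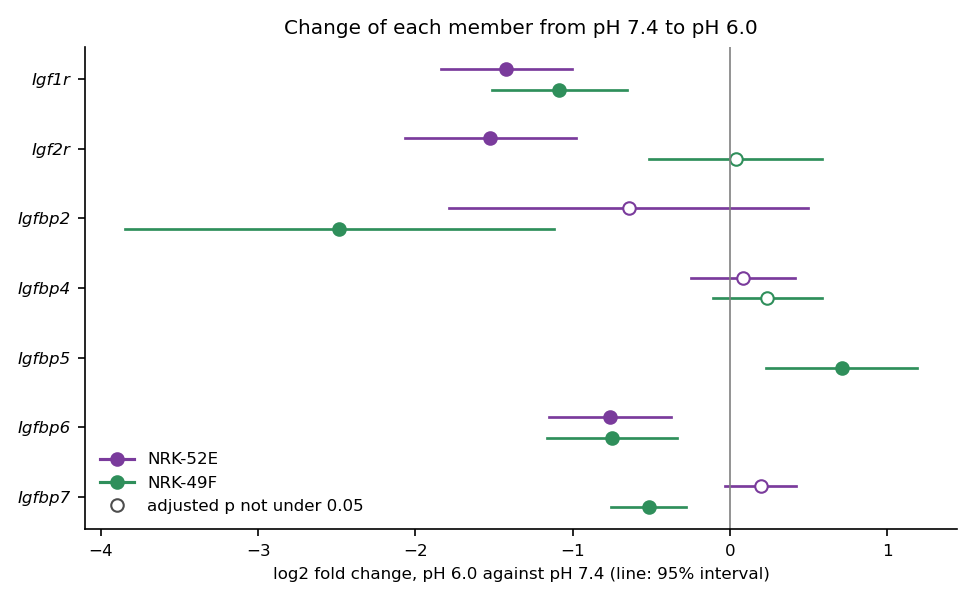
Log2 fold change of 7 members (x axis, pH 6.0 against pH 7.4) in NRK-52E (purple) and NRK-49F (green) cells, with lines for the 95% interval and filled points where the adjusted p was under 0.05; Igfbp5 is not drawn for NRK-52E cells, where its counts were near the limit of detection. Igf1r and Igfbp6 lay left of 0 in both lines, Igf2r in NRK-52E cells at -1.52, and Igfbp5 right of 0 in NRK-49F cells at 0.71.

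Igfbp7, the low-affinity member, moved apart in the lines. In NRK-49F cells it ranged from 135 to 186 FPM with a median of 174 at pH 7.4, and was at 137, 117, 108, 127 and 96.9 FPM at pH 6.0, so that the groups overlapped by 1 sample. The log2 fold change was -0.52 (SE 0.12, adjusted p = 0.00233). In NRK-52E cells it ranged from 106 to 168 FPM with a median of 126 at pH 7.4 and from 118 to 177 FPM with a median of 150 at pH 6.0. This log2 fold change of 0.20 was not called (SE 0.12, adjusted p = 0.147), and the difference between the lines was 0.71 (SE 0.17, adjusted p = 0.00147). Which line held more Igfbp7 depended on the pH: NRK-52E cells were lower at pH 7.4 (log2 difference -0.37, adjusted p = 0.00722) and higher at pH 6.0 (0.35, adjusted p = 0.0129). The latter was lost without sample A056, with an adjusted p of 0.0927.

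The NRK-52E value of Igfbp7 combined unlike sample groups. In group 1 it went from 106, 121 and 114 FPM at pH 7.4 to 155, 163 and 177 FPM at pH 6.0, a log2 fold change of 0.53 (adjusted p = 0.00165). In group 3 it was at 131, 140 and 168 FPM and then at 136, 118 and 146 FPM, a log2 fold change of -0.14 (adjusted p = 0.377). The difference between the groups was -0.67 (SE 0.18, adjusted p = 0.0195), in a test that 10.6% of all genes passed. Leaving out sample A021, A026, A035 or A037 ended this call, with a highest adjusted p of 0.0621. In NRK-49F cells no member differed between sample groups 4 and 6 in its response (0 of 8 by edgeR, with 0 at an unadjusted p under 0.05, 0 by the likelihood ratio test and 0% of all genes called).

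Igfbp2, the binding protein that marked NRK-52E cells, ranged there from 1386 to 4097 FPM with a median of 2328 at pH 7.4 and from 954 to 2368 FPM with a median of 1548 at pH 6.0. The log2 fold change of -0.64 was not called (SE 0.58, adjusted p = 0.35). Its levels lay apart by sample group without overlap, but the test called the difference at neither pH (adjusted p = 0.378 at pH 7.4 and 0.408 at pH 6.0). These fits share an estimate of spread with the NRK-49F samples, where Igfbp2 ranged from 0.862 to 108 FPM at pH 7.4. Their p-values therefore do not measure the spread within NRK-52E samples alone. Group 1 held 1404, 1490 and 1386 FPM at pH 7.4 and 954, 1084 and 1228 FPM at pH 6.0, whereas group 3 held 3166, 3270 and 4097 FPM and then 1987, 1868 and 2368 FPM. Within each group, all 3 acidic samples lay below all 3 controls. When NRK-52E samples were fitted alone with the sample group as a block, an alternative added after the data had been seen, the log2 fold change was -0.49 and was called (adjusted p = 0.000663). The line fitted alone without the block gave -0.55 (adjusted p = 0.133).

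In NRK-49F cells Igfbp2 was far lower, at 27.8, 10.2, 9.87, 108, 19.9 and 0.862 FPM at pH 7.4 and at 7.24, 3.35, 10.5, 2.78 and 2.28 FPM at pH 6.0. NRK-52E cells exceeded them by 6.38 on the log2 scale at pH 7.4 (83.3-fold, adjusted p = 3.8e-08) and by 8.22 at pH 6.0 (adjusted p = 8.31e-09). The log2 fold change by pH within NRK-49F cells was -2.48 (SE 0.70, adjusted p = 0.00901), and without sample A051, the highest, it was -1.39 and not called (adjusted p = 0.065). Igfbp2 in these samples ran beside the share of other NRK-52E genes: A053 had the lowest share of the 57 genes (0.0895%) and the lowest Igfbp2 (0.0349% of its NRK-52E level), and A051 had the highest of both (3.91% and 4.37%). In A053 at pH 7.4 and in A043, A054, A055 and A056 at pH 6.0, the Igfbp2 share was below the median share of the 57 genes. Subtracting the other line's signal therefore left no Igfbp2 counts in these samples. With it subtracted, the log2 fold change within NRK-49F cells was -4.10 and called (adjusted p = 0.00278). At pH 6.0 only A042 kept any Igfbp2 counts, so the size of this value is not informative. The difference between the lines in the change by pH was 1.84 and not called (adjusted p = 0.101). With this subtraction it was 3.46 and called (adjusted p = 0.0198), with the same limit.

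**Figure D3:**
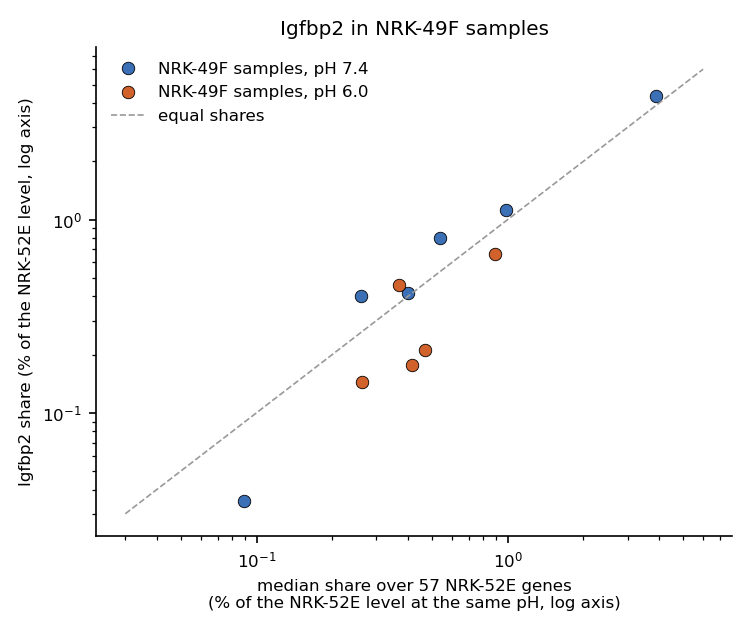
Igfbp2 in each of the 11 NRK-49F samples (y axis, percent of the mean NRK-52E level at the same pH, log axis) against the median of the same percentage over 57 genes high in NRK-52E cells (x axis, log axis), at pH 7.4 (blue) and pH 6.0 (orange), with a dashed line where both are equal. The points ran along the line from 0.0895% and 0.0349% in A053 to 3.91% and 4.37% in A051.

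Igfbp5, a binding protein that also attaches to extracellular matrix, had the opposite pattern to Igfbp2. NRK-52E samples held 0 to 9 counts at pH 7.4 and 0 to 3 counts at pH 6.0, while NRK-49F samples held 236 to 563 counts (12.6 to 25 FPM, median 16.6) at pH 7.4. At pH 6.0 the NRK-49F samples were at 22.1, 41, 25.4, 24.4 and 32.2 FPM. The rise in NRK-49F cells was 0.71 on the log2 scale (SE 0.25, adjusted p = 0.0323), with overlap of 1 control sample. The sample groups gave 0.64 and 0.84, neither called alone (adjusted p = 0.189 and 0.06), and the call was lost when any 1 of 6 samples was left out (A041, A043, A051, A052, A053 or A056), with a highest adjusted p of 0.119. These fits share an estimate of spread with the NRK-52E samples. The rise was called with NRK-49F samples fitted alone (adjusted p = 0.0115), by the likelihood ratio test (0.00631) and by DESeq2 (0.00858). With the other line's signal subtracted it was not called (adjusted p = 0.05). At pH 7.4 the lines differed by -6.64 on the log2 scale (adjusted p = 6.05e-14). Against the limit of 3 counts per library, Igfbp5 was at least 198-fold higher in NRK-49F than in NRK-52E cells at pH 6.0. In NRK-52E cells edgeR's quasi-likelihood test did not call the change by pH (adjusted p = 0.0751), whereas the likelihood ratio test (0.0129) and DESeq2 (0.0241) called it lower, as did the former test without A023, A033, A035 or A036 (0.0372 to 0.0482). Of the NRK-52E samples, those at pH 7.4 had shares of NRK-49F genes up to 1.53% and those at pH 6.0 up to 0.0893%, and with that signal subtracted the change by pH had an adjusted p of 0.577. The responses of the lines differed by -2.27 on the log2 scale (adjusted p = 0.0239), a value whose NRK-52E side rests on these few counts. This call was lost with the other line's signal subtracted (-1.33, adjusted p = 0.304) and without A021, A026 or A034 (adjusted p = 0.0666, 0.059 and 0.0698).

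Igfbp4, the substrate of the protease PAPP-A, had similar levels in all 4 conditions. Its mean was 31.4 ± 9.40 FPM (SD, n = 6) in NRK-52E cells at pH 7.4, 33.3 ± 7.74 (n = 6) at pH 6.0, and 32.2 ± 4.05 (n = 6) and 37.9 ± 4.79 FPM (n = 5) in NRK-49F cells. No change with pH was called (log2 fold change 0.08, 95% interval from -0.25 to 0.42, and 0.24, from -0.11 to 0.58), nor a difference of the lines at either pH (adjusted p = 0.863 and 0.336). Within NRK-52E cells Igfbp4 was higher in sample group 3 than in group 1, at 36.5, 39.4 and 43.3 against 22.2, 22.3 and 24.9 FPM at pH 7.4 (log2 difference 0.78, adjusted p = 0.000901). Of all genes, 2.96% differed between these groups at pH 7.4.

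The ligands were scarce in both lines. Igf1 had 0 counts in 11 of 12 NRK-52E samples and 2 counts in the other. NRK-49F samples held 22, 17, 8, 24, 31 and 13 counts at pH 7.4 and 7, 5, 24, 26 and 10 counts at pH 6.0, or 0.785 ± 0.170 and 0.609 ± 0.294 FPM (SD). Against the limit of 3 counts, Igf1 was at least 5.68-fold higher in NRK-49F cells at pH 7.4 and at least 4.15-fold higher at pH 6.0. Its change by pH in NRK-49F cells was -0.34 (SE 0.37, adjusted p = 0.541).

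Igf2 appeared in acidic NRK-52E cells at a very low level. Its counts were 0 in 5 samples and 1 in the other at pH 7.4, and 11, 3, 6, 10, 15 and 9 at pH 6.0, which is 0.453 ± 0.254 FPM (SD, n = 6). All acidic samples were above all controls, with 1 of them exactly at the limit of 3 counts. The mean of the acidic samples was at least 3.28-fold higher, set against the mean of that limit over the controls. An exact two-sided permutation test gave p = 0.00216, the smallest value that 6 against 6 samples allow, and the fit without a filter on low counts gave an adjusted p of 4.28e-05. In NRK-49F cells the counts were 4, 2, 1, 0, 0 and 1 at pH 7.4 and 0 in all 5 samples at pH 6.0 (exact permutation p = 0.0606), with an adjusted p of 0.0454 in the unfiltered fit. These values rest on at most 15 reads per library.

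Igfbp3, the main carrier of IGFs in serum, was near the limit throughout. It had 4, 0, 2, 1, 9 and 6 counts in NRK-52E cells at pH 7.4 and 0, 0, 0, 1, 0 and 4 at pH 6.0 (exact permutation p = 0.184). In NRK-49F cells it had 2 counts in 1 sample and 0 in the other 5 at pH 7.4, and 4, 1, 0, 1 and 1 counts at pH 6.0 (exact permutation p = 0.262). A difference by pH was not detectable at this depth (adjusted p = 0.135 and 0.365 in the unfiltered fit), and that fit called Igfbp3 higher in NRK-52E than in NRK-49F cells at pH 7.4 (adjusted p = 0.0258).

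**Figure D4:**
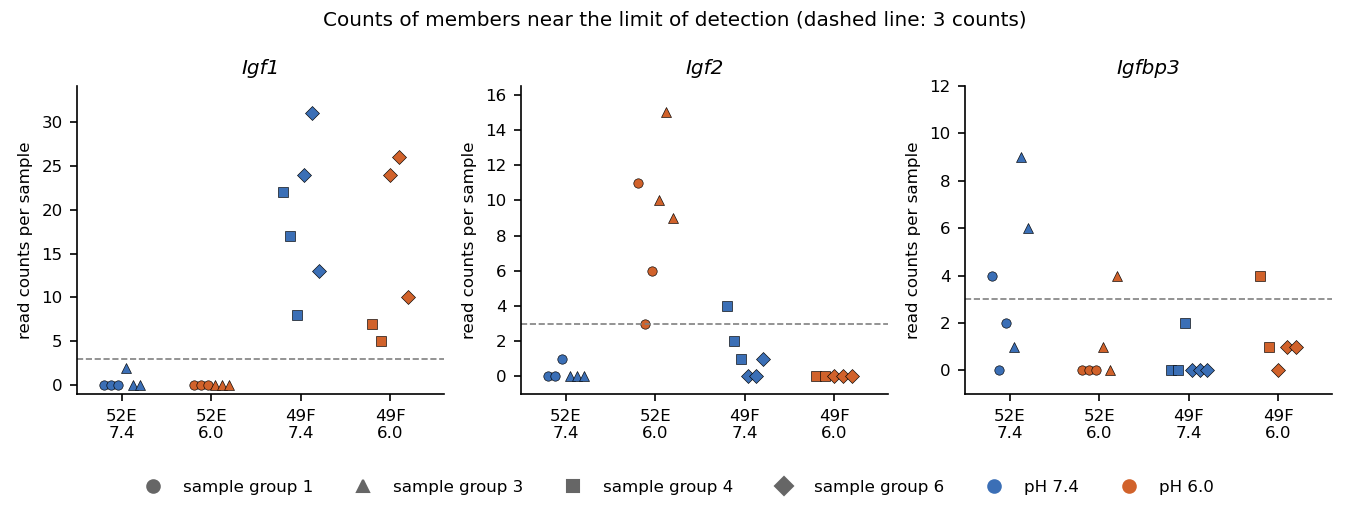
Raw read counts (y axis) of Igf1, Igf2 and Igfbp3 in every sample of NRK-52E (52E) and NRK-49F (49F) cells at pH 7.4 (blue) and pH 6.0 (orange), with the sample group given by the marker's shape and a dashed line at 3 counts. Igf1 lay above the line in NRK-49F samples, Igf2 lay at 3 to 15 counts in NRK-52E samples at pH 6.0, and Igfbp3 reached at most 9 counts.

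Taking the lines against each other, 7 of 8 tested members differed at pH 7.4 (Igfbp2 higher in NRK-52E cells and 6 lower), beside 68.8% of all genes (35% and 33.9%). At pH 6.0 again 7 of 8 differed (Igfbp2 and Igfbp7 higher, 5 lower), beside 75.5% of all genes (36.6% and 38.9%). The samples of both lines did not overlap for 5 members at each pH, where 50.7% and 57.3% of all genes did not. Igf1 and Igfbp5 are in all these counts, and they passed the filter on low counts only through their NRK-49F samples. Their place among the lower and non-overlapping members was thus largely set by the filter. The responses to pH differed between the lines for 3 of 8 members (Igfbp7 upward, Igf2r and Igfbp5 downward in NRK-52E relative to NRK-49F), beside 41.4% of all genes (16.8% and 24.7%). With the other line's signal subtracted, Igfbp5 was no longer called and Igfbp2 was. After this subtraction, A042 alone kept Igfbp2 counts among the NRK-49F samples at pH 6.0.

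Genes whose levels ran most like a member over all 23 samples are given by Pearson's coefficient of log2(FPM + 0.5), among 9996 candidates that share the same libraries and the contrast of the lines. For Igf2r they were Parp14 (0.995), Frmd4a (0.993) and Ppm1l (0.991), for Igfbp5 Npas2, Jam2 and Diras2 (each 0.996), and for Igfbp2 Npnt (0.992), Mfap5 (0.989) and Myh14 (0.986). Igf1r was closest to Msl1 (0.963) and Igfbp6 to Cfl1 (0.977). Within the 12 NRK-52E samples, Igf2r was closest to Ankrd44 (0.998) and Igfbp6 to Fahd2a (0.988). Within the 11 NRK-49F samples, Igfbp2 was closest to Eln (0.945) and Mfap5 (0.930). Igfbp4 and Igfbp7 had weaker counterparts over all samples, Fbln1 (0.885) and Tnfrsf12a (0.914).

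A list that joins the enzymes that cut IGF-binding proteins with their inhibitors was mostly lower at pH 6.0 in the NRK-52E line. Of 10 tested genes of this list, 8 were called lower and 1 higher there (36.6% and 24.7% of all genes), with a median log2 fold change of -1.49 beside -0.12 over all genes. The 8 and this median include Mmp2 and Adam12, which were far lower in NRK-52E than in NRK-49F cells. In NRK-49F cells 1 of the 10 was lower and 3 were higher (14.4% and 14.5% of all genes), with a median of -0.15. The responses of the lines differed for 8 of the 10 (1 upward and 7 downward in NRK-52E), beside 41.4% of all genes (16.8% and 24.7%). Htra3, a serine protease, went from 12.6 ± 2.24 to 2.94 ± 0.799 FPM (SD) in NRK-52E cells (log2 fold change -2.09, SE 0.18, adjusted p = 4.84e-10). Stc2, an inhibitor of PAPP-A, rose from 1.51 ± 0.364 to 4.07 ± 1.02 FPM (1.41, SE 0.16, adjusted p = 6.88e-08). Mmp2, a gelatinase, rose in NRK-49F cells from 582 ± 41.7 to 1235 ± 75.5 FPM (1.08, SE 0.39, adjusted p = 0.0407). This fit shares its estimate of spread with NRK-52E samples, which held 0 to 215 Mmp2 counts. The SE therefore does not measure the spread within NRK-49F samples alone. With the other line's signal subtracted, the rise was 1.07 (adjusted p = 0.000224). Htra1, named after its values had been seen, rose in NRK-49F cells (0.91, adjusted p = 0.000354) and fell in NRK-52E cells (-1.63, adjusted p = 5.2e-08), with a difference of -2.54 (adjusted p = 3.71e-08). In NRK-52E cells Mmp2 and Adam12 were also called lower, but they stood at 0.322% and 0.458% of their NRK-49F level at pH 7.4. Once the other line's signal was subtracted, Mmp2 was still called lower (-3.66, adjusted p = 0.0405). Adam12, with at most 17 counts at pH 7.4 and 0 at pH 6.0, was then not called (adjusted p = 0.0773).

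Among 14 tested adaptors and inhibitors close to the receptor, the NRK-52E line had 6 higher and 5 lower, and NRK-49F had 0 higher and 5 lower, beside the 61.2% and 28.9% of all genes called in these lines. Irs1, the docking protein that passes the signal of IGF1R to PI3K, also fell in both lines, from 69.3 ± 8.0 to 34.7 ± 6.65 FPM in NRK-52E cells (log2 fold change -0.998, adjusted p = 2.92e-07) and from 21.5 ± 3.10 to 9.32 ± 1.37 FPM in NRK-49F cells (-1.21, adjusted p = 4.74e-07). Of the SOCS family, feedback inhibitors of cytokine receptors, Socs3 and Cish fell in NRK-52E cells (-1.19, adjusted p = 4.93e-10, and -1.15, adjusted p = 1.22e-05) and Socs1 rose (1.08, adjusted p = 8.76e-06).

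Downstream, 21 genes of PI3K, AKT, TSC, mTOR and FOXO were tested. NRK-52E had 10 higher and 4 lower, beside 24.7% of all genes higher and 36.6% lower. NRK-49F had 3 in each direction, beside 14.5% of all genes higher and 14.4% lower. The median log2 fold changes were 0.23 and -0.01, beside -0.12 and 0.00088 over all genes. Pik3ca, the catalytic subunit p110 alpha, rose from 90.2 ± 6.34 to 204 ± 15.6 FPM in NRK-52E cells (1.18, SE 0.08, adjusted p = 1.47e-11) and by 0.34 in NRK-49F cells (adjusted p = 0.00302).

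Around the mannose 6-phosphate function of Igf2r, NRK-52E had 4 of 11 tested genes higher and 4 lower, beside 61.2% of all genes called, and NRK-49F had 0 higher and 3 lower, beside 28.9%. Gnptg, a subunit of the enzyme that puts the tag on lysosomal hydrolases, fell from 35.5 ± 2.81 to 5.34 ± 1.17 FPM in NRK-52E cells (-2.73, SE 0.14, adjusted p = 1.1e-13) and from 57.3 ± 8.51 to 29.0 ± 5.36 FPM in NRK-49F cells (-0.98, adjusted p = 4.45e-06). M6pr, the smaller receptor for the same tag and named after its values had been seen, was not called in either line (0.06, adjusted p = 0.451, and 0.10, adjusted p = 0.299).

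Of 4 tested IGF2 mRNA-binding proteins and imprinted partners, NRK-52E had 1 lower, beside 61.2% of all genes called. NRK-49F had 1 in each direction, beside 28.9%. Igf2bp2, which binds Igf2 mRNA, was 0.445 FPM in NRK-52E cells at pH 7.4 and 0.135 FPM at pH 6.0 (-1.85, adjusted p = 0.00038). These are 0 to 25 counts, and the level at pH 7.4 was 1.42% of that in NRK-49F cells. With the other line's signal subtracted the change was -1.39 (adjusted p = 0.00611). In NRK-49F cells Igf2bp2 was 31.4 ± 1.40 and then 52.7 ± 4.55 FPM (0.75, adjusted p = 0.00156). Plagl1, an imprinted zinc-finger factor, was 4.01 ± 4.86 and then 0.634 ± 0.535 FPM in NRK-49F cells (-2.75, adjusted p = 0.00172), where its level at pH 7.4 was 1.60% of that in NRK-52E cells. H19, the non-coding neighbour of Igf2, was near 0 throughout. Of 7 tested cell-surface partners, NRK-52E had 1 higher and 4 lower, and NRK-49F had 1 higher, beside the same shares of all genes. Fn1, fibronectin, was 49 and then 8.66 FPM in NRK-52E cells (-2.50, adjusted p = 1.59e-05), at 0.580% of the NRK-49F level, and lost its call with the other line's signal subtracted (adjusted p = 0.0516). Itgb3, at most 5 counts in NRK-52E samples, was likewise not called after subtraction (adjusted p = 0.08).

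**Figure D5:**
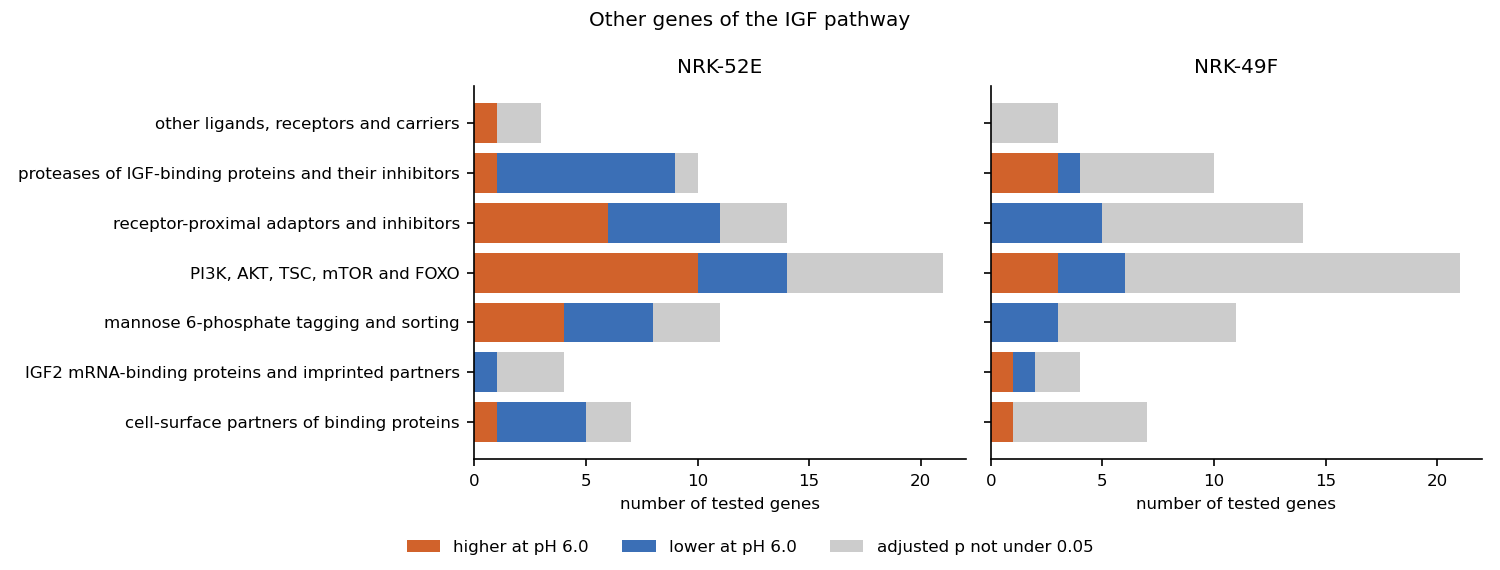
Number of tested genes (x axis) of 7 lists around the IGF system that were higher (orange), lower (blue) or not called (grey) at pH 6.0, in NRK-52E cells (left) and NRK-49F cells (right). In NRK-52E cells 8 of 10 genes of the list of proteases and their inhibitors were lower, beside 36.6% of all genes. Mmp2 and Adam12, counted among these 8, stood there at 0.322% and 0.458% of their NRK-49F level at pH 7.4. In NRK-49F cells 3 of the 10 genes were higher, beside 14.5% of all genes.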

How the data were processed

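Gene counts of 23 samples of rat cells were analysed. The deposited values are raw counts, which the authors made from poly(A) read pairs with HISAT2 and featureCounts on exons of Ensembl genes, with multi-mapping reads included and no normalization. The paper's methods name the build rn7 and the submitters' processing notes name rn6 with HISAT2 2.1.0. Whether featureCounts used strand is not given in the sources used here, so reads of a gene and of an overlapping antisense gene cannot be told apart. A further 13 columns with no matching sample label were not used.

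Samples were grouped by line and pH from their labels. All 23 were fitted in 1 model with 4 conditions by edgeR 4.0.16 in R 4.3.3 (filterByExpr at its settings of 10 counts and 15 in total, TMM scaling, quasi-likelihood test, Benjamini-Hochberg adjustment over 14777 genes). The sample groups were compared in a second model with a mean for each line, pH and sample group. Standard errors are the log2 fold change divided by the square root of F. FPM are counts scaled to a TMM-scaled library of 1000000. For members outside the fit, exact permutation of the samples (two-sided) gave 4 unadjusted p-values. Floors and bounds take in counting error alone, because PCR copies were not marked by molecular identifiers. The signal of the other line was estimated from genes with at least 50 FPM in its samples at pH 7.4 and at least 100 times the median of the receiving line.

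The members, lists and tests were chosen with earlier results of these data known. All 10 members are described. Genes of the lists are named where they were called with an absolute log2 fold change of at least 1 and a mean of at least 5 FPM in any condition, up to 3 in each direction per list, and likeness was ranked among genes averaging 5 FPM or more. The steps were tested on simulated data. Alternatives changed scaling, test (likelihood ratio, DESeq2 1.42.0), filter, depth, the samples fitted and the sample group as a block, and left out each sample. Figures were drawn with matplotlib 3.10.9.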

Additional observations from a re-analysis of the deposited data

Results flagged for a closer look

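Of 38 groups of samples examined, 6 had a sample set apart from the others by Dixon's ratio (the gap to the nearest sample over the whole range, against the 95% critical value for 6 samples). Chance alone sets apart about 1 group in 20 where values are normally distributed. That rate does not hold for groups with counts in a single sample, where the ratio is always 1. In NRK-49F cells at pH 7.4, Igfbp2 in sample A051 was 108 FPM and the next sample 27.8 FPM (ratio 0.748), and this sample also held the highest share of other NRK-52E genes. In NRK-52E cells at pH 7.4, Igfbp6 in sample A035 was 688 FPM and the next sample 418 FPM (ratio 0.788). The other 4 rested on 1 to 4 counts: Igf1 in A033 with 2 counts (ratio 1), Igf2 in A023 with 1 count (ratio 1), Igfbp3 in A041 with 2 counts (ratio 1) and Igfbp3 in A038 with 4 counts (ratio 0.734).

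The response to pH differed between NRK-52E and NRK-49F cells, by edgeR's test of the difference itself, for Igf2r (-1.56 on the log2 scale, adjusted p = 0.00258), Igfbp5 (-2.27, adjusted p = 0.0239, with 0 to 9 counts on the NRK-52E side, and lost with the other line's signal subtracted, at -1.33 and adjusted p = 0.304, or without A021, A026 or A034) and Igfbp7 (0.71, adjusted p = 0.00147). Within NRK-52E cells, the response of Igfbp7 differed between sample groups 3 and 1 (-0.67, adjusted p = 0.0195). What sets the sample groups apart is not given in the labels, and its part in this difference was not tested.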

How the results depend on the processing

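No paired analysis was possible because no replicate code occurs at both pH values. The planned share of each binding protein in their sum was not run, since no exon lengths were at hand. Leaving samples out aside, 321 of 339 recomputed log2 fold changes of members kept their direction and side of the threshold, 6 turned in sign, 7 were no longer called and 5 were newly called. This tally left out Igf1, except for its change by pH in NRK-49F cells. It also left out Igfbp5 in the NRK-52E change, the difference between the responses and the lines at pH 6.0. Among these, Igfbp5 in NRK-52E cells was newly called by the likelihood ratio test (adjusted p = 0.0129) and DESeq2 (0.0241). Its difference between the responses lost its call after subtraction (adjusted p = 0.304). Of the counts, 5 members instead of 3 were called in NRK-52E cells with each line alone and the sample group as a block, and 2 instead of 5 in NRK-49F cells in sample group 4 alone (fewer samples). The likelihood ratio test called 2 members instead of 1 for the difference between sample groups 1 and 3. The signs that turned belonged to values not called in either fit: Igfbp7 in NRK-52E cells in sample group 3 (-0.14), Igf2r in NRK-49F cells in group 4 (-0.14), and the difference of Igfbp6 between the lines, at 0.033 with RLE scaling, 0.033 with DESeq2, 0.010 without a filter and 0.010 with the signal of the other line subtracted. The causes were not tested.

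With each sample left out in turn, called members ranged from 3 to 5 in NRK-52E cells (5 without A035), from 3 to 5 in NRK-49F cells (3 without A051), and from 0 to 2 for the difference between sample groups 1 and 3 (0 without A021, A026, A035 or A037, 2 without A042 or A043). Sign changes among uncalled values gave ranges of -0.092 to 0.20 for Igf2r in NRK-49F cells, -0.13 to 0.16 for the difference of Igfbp6 and -0.15 to 0.051 for Igfbp4 between lines at pH 7.4. The values left out of the tally above are not in these ranges. Among them, the uncalled difference of Igf1 between the responses went from -1.51 to 0.34 without A033. Igfbp7 in NRK-52E cells was called without A035 (0.28, adjusted p = 0.0315) and with the line fitted alone (0.28, adjusted p = 0.0465), where the median log2 fold change of all genes was -0.002 instead of -0.12. Igfbp5 in NRK-49F cells kept its size with the signal of the other line subtracted (0.70 against 0.71), with an adjusted p of 0.05 that was not under the threshold. Counts of called pathway genes stayed within 1.5 times in every alternative run. Depth limits Igf1, Igf2 and Igfbp3 in both lines and Igfbp5 in NRK-52E cells.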

Other observations

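Among the other ligands, receptors and carriers of the system, 3 of 9 listed genes passed the filter on low counts. Insr, the insulin receptor, was 23.2 FPM in NRK-52E cells at pH 7.4 and 20.2 FPM at pH 6.0 (log2 fold change -0.21, adjusted p = 0.506), and 14.8 and 11.9 FPM in NRK-49F cells (-0.33, adjusted p = 0.415). Igfals, which encodes the acid-labile subunit of the circulating complex, was low, at 0.158 and then 0.783 FPM in NRK-52E cells (2.23, adjusted p = 4.94e-05). Insl3, a relaxin-like peptide, was 1.72 and 1.92 FPM in NRK-52E cells and was not called (adjusted p = 0.613). The genes of insulin, Ins1 and Ins2, and Igfbp1 were at or near 0 in both lines.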
